A study of Mus musculus with 12 samples.

Results

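The genes described here encode core proteins of the spliceosome and the RNA-binding proteins that steer it. They were taken by symbol from the protein-coding rows of the table (Srsf, Tra2a and Tra2b, Hnrnp, Snrp, Sf3a, Sf3b, U2af, Ptbp, Mbnl, Celf and Rbfox genes), which gave 73 genes of 22186 protein-coding genes and of 46731 genes in all. RNA-seq was made from ATDC5 cells, a mouse teratocarcinoma line that can be driven towards cartilage, carrying a stably integrated lentiviral hairpin. There were 4 groups of 3 libraries. The shRNA-NC group carried a control hairpin and the shRNA-Ddx5 group a hairpin against Ddx5, an RNA helicase that itself takes part in splicing, and both were kept without stimulation. The shRNA-NC + cytokines and shRNA-Ddx5 + cytokines groups were the same lines after 6 h with the cytokines IL-1β (dose 5 ng/ml) and TNF-α (dose 25 ng/ml), which induce inflammatory genes. Each hairpin was in 1 stable line under selection, and the hairpin lowers Ddx5 RNA without removing it.

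The spliceosome removes introns from pre-mRNA. U1 snRNP marks the 5′ splice site, the U2AF heterodimer marks the 3′ splice site and U2 snRNP, with its SF3A and SF3B subunits, binds the branch point. The Sm proteins (Snrpb, Snrpd, Snrpe, Snrpf and Snrpg genes) form the ring around the snRNAs. SR proteins mostly favour the use of an exon they bind, hnRNP and PTB proteins often oppose it, and muscleblind, CELF and RBFOX proteins act according to where they bind. Many of these genes also regulate themselves and each other through exons that bring the transcript to nonsense-mediated decay (NMD), the pathway that destroys mRNAs with an early stop codon.

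Exons of this kind are shown for Ptbp2, the member that fell most, and for 3 SR protein genes whose knockdown effect differed between media. In Ptbp2 the exon has 34 bases, so that leaving it out shifts the reading frame; Ptbp1 protein is known to keep it out. GENCODE vM39 has 4 protein-coding transcripts with the exon and 4 NMD transcripts that skip it. The Ptbp2 stretch is the exon in capitals after 60 intron bases, of which 49 are C or T (GRCm39, chr3:119518261-119518354, minus strand).
Ptbp2: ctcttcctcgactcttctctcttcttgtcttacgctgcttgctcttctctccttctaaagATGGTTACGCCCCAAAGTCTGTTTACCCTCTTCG
The other 3 stretches run from 30 intron bases through the start of an exon to its in-frame stop codon, in capitals. They lie at chr17:29258398-29258461 on the plus strand (Srsf3), at chr17:80512483-80512540 on the minus strand (Srsf7) and at chr16:22077931-22078041 on the minus strand (Tra2b), and the stop is that of 13, 9 and 13 annotated NMD transcripts of these genes.
Srsf3: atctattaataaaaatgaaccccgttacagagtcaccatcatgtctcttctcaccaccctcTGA
Srsf7: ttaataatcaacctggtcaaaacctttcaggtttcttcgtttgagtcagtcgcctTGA
Tra2b: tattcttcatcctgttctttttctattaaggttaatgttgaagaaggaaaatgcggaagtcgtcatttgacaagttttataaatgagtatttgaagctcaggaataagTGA
The deposited values sum all transcripts of a gene, so the use of these exons was not measured. Of the 64 members tested below, 51 (79.7%) have an annotated NMD transcript, against 78.1% of the 10350 tested protein-coding genes found in GENCODE.

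Levels are FPKM, so a count is divided by gene length and by the library denominator that the authors used. The libraries held from 14119199 to 19276520 fragments on genes, 1.48% to 1.70% of them on members. Within groups the log2 values of libraries correlated at 0.973 to 0.993, and shRNA-NC replicate 3, shRNA-Ddx5 replicate 1 and shRNA-NC + cytokines replicate 1 stood apart most from the other 2 of their groups. Ddx5 was at 32.3% of its control in medium and 32.1% with cytokines, while its paralog Ddx17 was at 206% and 292%. Of 12 cartilage markers only Sox9, Col2a1, Col11a2 and Sox5 reached 1 FPKM, and Acan and Matn1 were at or near 0. The list's summed FPKM, made up mostly of Sox9 and Col2a1, was 40.8 to 47.3 in shRNA-NC and 27.5 to 31.4 in shRNA-Ddx5 cells. It was 14.6 to 20.9 in shRNA-NC + cytokines and 8.71 to 9.52 in shRNA-Ddx5 + cytokines cells. In medium Sox9, Col2a1, Col11a2 and Sox5 were lower in every shRNA-Ddx5 library than in any shRNA-NC library. Sox6, Hapln1, Col9a1 and Col10a1, all below 1 FPKM, were higher in every one. Of 12 markers of other cell types only Cd68 and Tubb3 reached 1 FPKM, and that list's summed FPKM was 3.58 to 5.64, 6.15 to 7.32, 8.50 to 10.2 and 5.58 to 6.79 in the same order of groups. Their part in the results was not tested.

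Of the 73 members, 64 reached 1 FPKM in 3 or more libraries and were tested. The other 9 were Srsf12, Hnrnpa1l2-ps2, Snrpn, Celf2, Celf3, Celf5, Celf6, Rbfox1 and Rbfox3, several of which are known as neuronal genes. Differences are log2 fold changes of FPKM + 1 from limma, with their standard error (SE) and a Benjamini-Hochberg adjusted p over all 12368 genes tested; a gene is said to rise or fall when that p was under 0.05. Genes near 1 FPKM are understated on this scale.

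In medium, knockdown of Ddx5 was accompanied by a rise of 17 members and a fall of 8, so 39.1% of the tested members passed the test against 47.0% of all genes tested (25.3% up and 21.7% down). The groups did not overlap for 25 members, where this held for 53.5% of all genes. The median log2 fold change of the tested members was 0.14, against 0.03 over all genes. With cytokines 10 rose and 8 fell, 28.1% against 45.6% of all genes (23.5% up and 22.1% down), with a median of 0.11 against 0.01, and 37 did not overlap, against 61.6% of all genes. Whether the members' shares differ from those of all genes was not tested, and the split between rises and falls moved with the scaling. Scaling to the sum of fragments gave 10 up and 11 down in medium and 9 and 10 with cytokines, and quantile normalization gave 5 and 14 in medium and 9 and 12 with cytokines. The members' medians moved as well. After scaling to the sum of fragments they were 0.0432 in medium and 0.0525 with cytokines, against -0.0528 and -0.0393 over all genes. After quantile normalization they were -0.0351 and -0.0122, against -0.00364 and -0.0149. In medium the number that rose was 11 without shRNA-NC replicate 2 or shRNA-Ddx5 replicate 1 and 10 without shRNA-Ddx5 replicate 3. With cytokines 16 rose without shRNA-NC replicate 3 and 23 without the 3 libraries that stood apart, and 3 or 4 fell when shRNA-NC + cytokines replicate 1 or any shRNA-Ddx5 + cytokines library was left out.

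**Figure D1:**
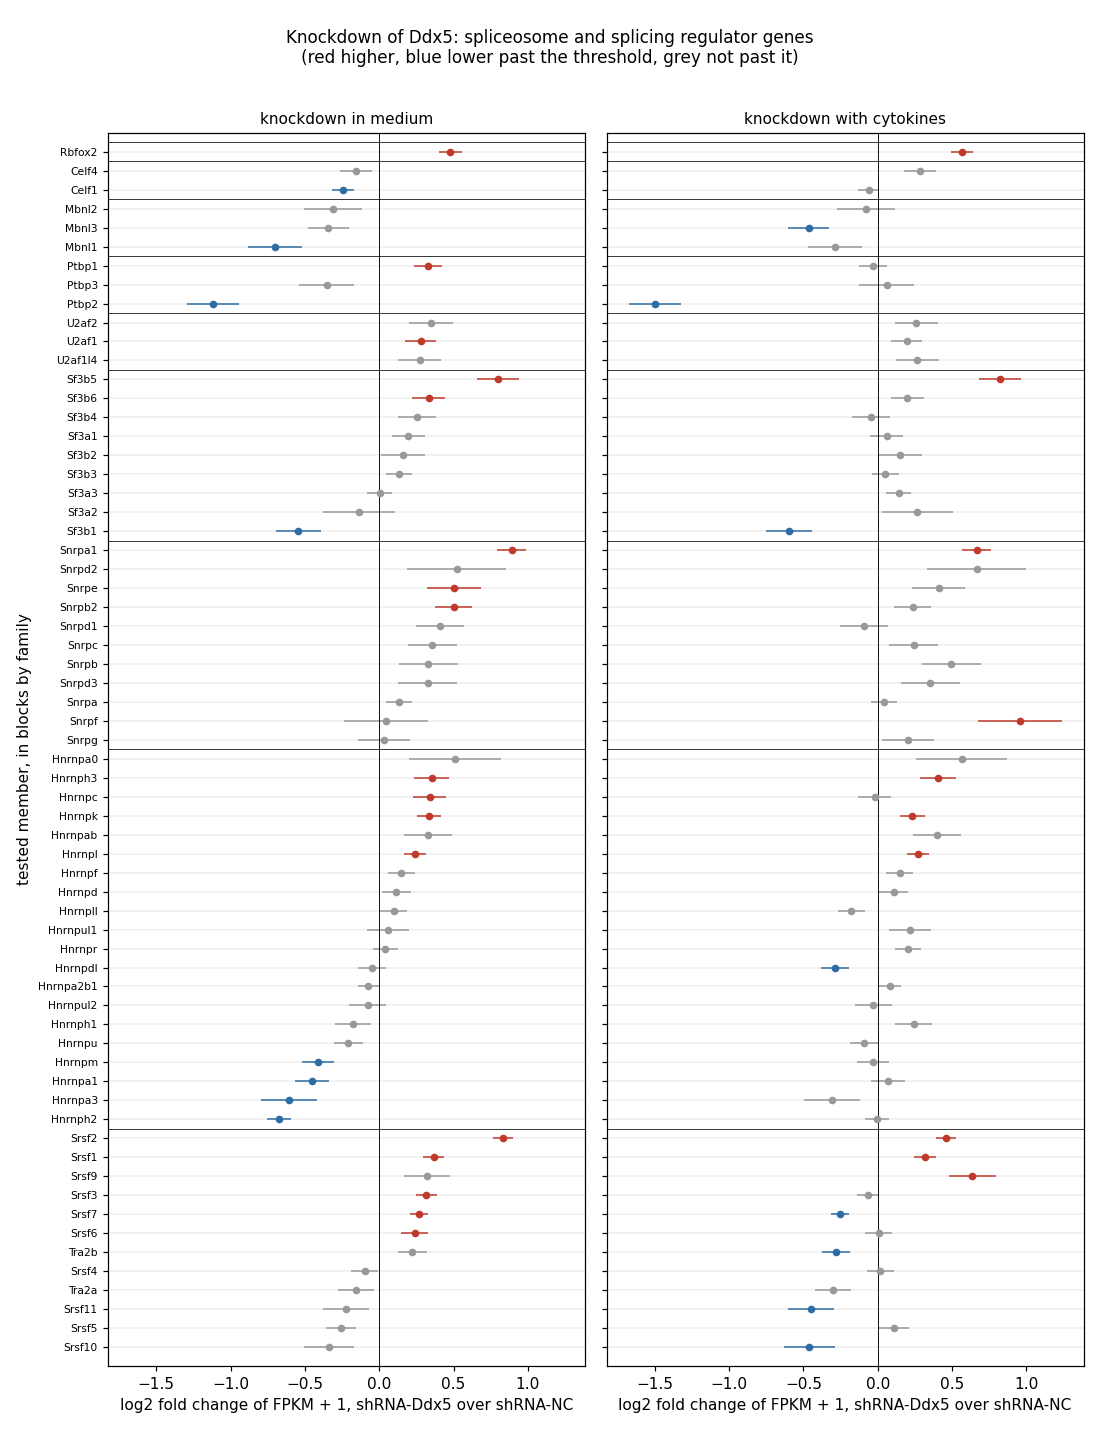
Log2 fold change of FPKM + 1 between shRNA-Ddx5 and shRNA-NC cells for the 64 tested members, in blocks by family, in medium (left) and with cytokines (right); points are limma estimates and bars their SE. Ptbp2 lies farthest to the left in both panels, at -1.12 and -1.50, and Srsf7 lies to the right of 0 in medium (0.27) and to the left of it with cytokines (-0.26).

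Across the media, 8 members rose in both (Hnrnph3, Hnrnpk, Hnrnpl, Rbfox2, Sf3b5, Snrpa1, Srsf1 and Srsf2), 2 fell in both (Ptbp2 and Sf3b1) and Srsf7 rose in medium and fell with cytokines. The share of members that rose in both was 12.5%, against 16.1% of all genes, and the share that fell in both was 3.12%, against 14.3%. The Hnrnpk rise with cytokines was lost under 11 of the alternatives.

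Ptbp2, a PTB protein best known from neurons, fell most. Its FPKM was 11.4, 12.8 and 13.4 in shRNA-NC and 3.84, 7.41 and 4.89 in shRNA-Ddx5 cells in medium. In the presence of cytokines the values were 16.7, 11.9 and 12.8 in shRNA-NC and 4.42, 3.97 and 4.20 in shRNA-Ddx5 cells. Every knockdown library lay below every control library in both media. The knockdown level was 43.0% of control in medium (log2 fold change -1.12, SE 0.18, limma adjusted p = 0.00043) and 30.4% with cytokines (-1.50, SE 0.18, limma adjusted p = 5.6e-05).

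Ptbp1, the widely expressed PTB protein, was far more abundant than Ptbp2 per length. In medium its FPKM was 218, 220 and 205 in shRNA-NC and 290, 251 and 269 in shRNA-Ddx5 cells (log2 0.33, SE 0.09, limma adjusted p = 0.013). With cytokines the groups overlapped and the log2 fold change was -0.03 (limma adjusted p = 0.81). The rise in medium was lost under quantile normalization. Ptbp3 had a log2 fold change of -0.35 in medium and 0.06 with cytokines and did not pass in either.

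Among the proteins of U2 snRNP, Snrpa1 and Sf3b5 rose and Sf3b1 fell in both media. Snrpa1, a protein specific to U2 snRNP, was at 72.9, 66.9 and 77.4 FPKM in shRNA-NC and 143, 122 and 140 FPKM in shRNA-Ddx5 cells in medium. Under cytokines it was at 103, 84.4 and 88.2 FPKM in shRNA-NC and 146, 149 and 143 FPKM in shRNA-Ddx5 cells. The groups did not overlap, and the level was 1.87-fold (log2 0.89, SE 0.10, limma adjusted p = 3.2e-05) and 1.59-fold (log2 0.67, limma adjusted p = 0.00023) that of the control.

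Sf3b5, a small SF3B subunit, was at 111, 112 and 94.3 FPKM in shRNA-NC and 225, 167 and 167 FPKM in shRNA-Ddx5 cells in medium. With cytokines it was at 109, 146 and 132 FPKM in shRNA-NC and 211, 243 and 230 FPKM in shRNA-Ddx5 cells. Knockdown libraries were the higher in both media, by 1.76-fold (log2 0.80, SE 0.14, limma adjusted p = 0.00082) and 1.77-fold (log2 0.82, limma adjusted p = 0.00067).

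Sf3b1, the large SF3B subunit that contacts the branch point, moved the other way. Its FPKM was 51.3, 56.1 and 66.3 in shRNA-NC and 31.0, 45.5 and 42.6 in shRNA-Ddx5 cells in medium. Under cytokines the values were 65.4, 48.5 and 49.8 in shRNA-NC and 35.2, 34.6 and 36.5 in shRNA-Ddx5 cells. The knockdown groups lay wholly below their controls, at 68.6% (log2 -0.54, SE 0.15, limma adjusted p = 0.013) and 64.9% (log2 -0.60, limma adjusted p = 0.0082). Of the 9 SF3A and SF3B genes, Sf3b6 also rose in medium (log2 0.33), and Sf3b2 and Sf3b3, the other abundant subunits of the complex, had log2 fold changes of 0.05 to 0.16 and did not pass.

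**Figure D2:**
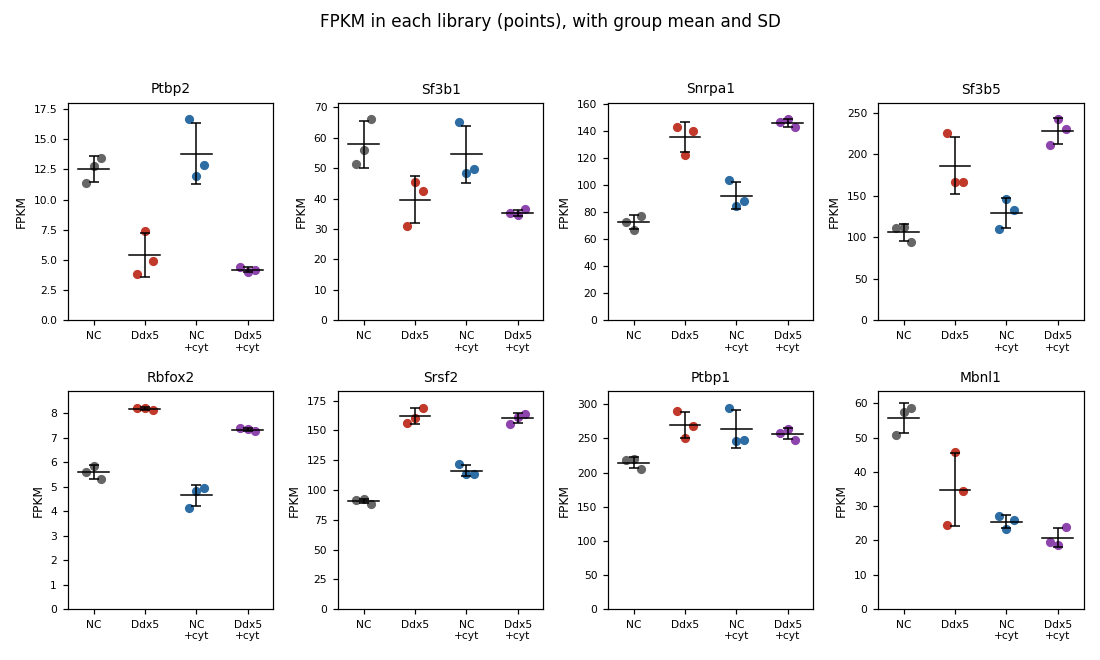
FPKM of 8 members in each of the 12 libraries (points), with the mean (line) and SD (bar) of each group; NC and Ddx5 name the hairpin and cyt the cytokines. Ptbp2 and Sf3b1 are lower, and Snrpa1, Sf3b5, Rbfox2 and Srsf2 higher, in every knockdown library than in any control library of the same medium, and Mbnl1 is lower in every cytokine library of a line than in its libraries in medium.

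Of the 11 tested Sm core and U1/U2 snRNP genes, 3 rose in medium (27.3%, against 25.3% of all genes), namely Snrpa1, Snrpb2 (log2 0.50) and Snrpe (log2 0.50). Under knockdown with cytokines 2 rose, Snrpa1 and Snrpf (18.2%, against 23.5% of all genes). Snrpf, an Sm ring protein, was at 26.0, 50.9 and 59.7 FPKM in shRNA-NC + cytokines and 95.6, 89.8 and 69.8 FPKM in shRNA-Ddx5 + cytokines cells (log2 0.96, SE 0.28, limma adjusted p = 0.017). Its control value was lowest in shRNA-NC + cytokines replicate 1, and the call was lost without that library or without shRNA-Ddx5 + cytokines replicate 1 or 2. The Snrpe call was lost under 11 alternatives, and the Snrpb2 call under quantile normalization and a gene length correction. Snrpg and Snrpd3, the most abundant Sm genes with Snrpe, did not pass.

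Of the 3 U2AF subunits, 1 passed in medium by limma (33.3%, against 47.0% of all genes). Under cytokines 0 passed by limma, against 45.6% of all genes, 0 had an unadjusted p under 0.05 and 0 passed with voom weights. U2af1, which reads the AG of the 3′ splice site, rose in medium (log2 0.28, SE 0.11, limma adjusted p = 0.048) with overlapping groups, and this call was lost under 16 alternatives. U2af2, which binds the pyrimidine tract, and U2af1l4 had log2 fold changes of 0.26 to 0.35 and did not pass in either medium.

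Rbfox2, the one RBFOX gene above the filter, rose in both media. Its FPKM was 5.60, 5.86 and 5.32 in shRNA-NC and 8.21, 8.22 and 8.12 in shRNA-Ddx5 cells in medium. After cytokines its values were 4.14, 4.82 and 4.95 in shRNA-NC and 7.38, 7.33 and 7.25 in shRNA-Ddx5 cells. The 4 groups did not overlap between hairpins, and the knockdown levels were 1.46-fold (log2 0.48, SE 0.07, limma adjusted p = 0.00037) and 1.58-fold (log2 0.56, limma adjusted p = 0.00012) those of the controls.

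The muscleblind genes had log2 fold changes below 0 in both media, with 1 of 3 past the threshold in each, where 21.7% and 22.1% of all genes fell. Mbnl1, the most abundant of them, was at 50.8, 57.6 and 58.8 FPKM in shRNA-NC and 24.4, 45.8 and 34.3 FPKM in shRNA-Ddx5 cells (log2 -0.70, SE 0.18, limma adjusted p = 0.008). The control libraries were all higher, but the knockdown libraries were spread widely. Under knockdown with cytokines the Mbnl1 groups overlapped (log2 -0.28, limma adjusted p = 0.22) and Mbnl3 fell (log2 -0.46, limma adjusted p = 0.017). The Mbnl3 call was lost without shRNA-NC + cytokines replicate 1 or shRNA-Ddx5 + cytokines replicate 2. Mbnl2 did not pass in either medium (log2 -0.31 and -0.08). Of the CELF genes, Celf1 fell in medium (log2 -0.24, limma adjusted p = 0.016), a call lost without shRNA-Ddx5 replicate 1 and under a gene length correction, and Celf4 did not pass under knockdown.

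Under knockdown SR proteins went both ways. In medium 5 of 12 rose and 0 fell by limma (1, Srsf5, had an unadjusted p under 0.05 in that direction, and 1 fell with voom weights), and with cytokines 3 rose and 4 fell. The shares were 41.7% up in medium, against 25.3% of all genes, and 25% up and 33.3% down with cytokines, against 23.5% and 22.1%. Srsf2, the SR protein that also acts in transcription elongation, was at 91.3, 92.2 and 88.5 FPKM in shRNA-NC and 156, 161 and 169 FPKM in shRNA-Ddx5 cells in medium. With cytokines it was at 121, 114 and 113 FPKM in shRNA-NC and 155, 162 and 164 FPKM in shRNA-Ddx5 cells. All knockdown libraries were higher, by 1.79-fold in medium (log2 0.83, SE 0.07, limma adjusted p = 4.9e-06) and 1.38-fold with cytokines (log2 0.46, limma adjusted p = 0.00024).

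Srsf9 rose under knockdown with cytokines (log2 0.64, SE 0.16, limma adjusted p = 0.0063). It was at 68.7, 93.3 and 97.7 FPKM in shRNA-NC + cytokines and 135, 143 and 123 FPKM in shRNA-Ddx5 + cytokines cells. In medium its groups overlapped (log2 0.32, limma adjusted p = 0.12). Srsf10 (log2 -0.46) and Srsf11 (log2 -0.45) fell under knockdown with cytokines, but these calls were lost under 12 and 8 alternatives. Of the remaining SR genes in medium, Srsf1 (log2 0.36), Srsf3 (log2 0.32), Srsf7 (log2 0.27) and Srsf6 (log2 0.24) rose, the last with overlapping groups. After quantile normalization the Srsf3 and Srsf7 rises were lost.

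Of the 20 tested hnRNP genes, under knockdown 4 rose and 4 fell in medium, and 3 rose and 1 fell with cytokines. In medium this was 20% in each direction, against 25.3% up and 21.7% down over all genes, and with cytokines 15% and 5%, against 23.5% and 22.1%. Hnrnph2, a G-run binding protein, Hnrnpa1, which competes with SR proteins at many exons, and Hnrnpm fell in medium with groups that did not overlap. Hnrnpa1 was at 380, 320 and 286 FPKM in shRNA-NC and 250, 232 and 234 FPKM in shRNA-Ddx5 cells (log2 -0.45, SE 0.11, limma adjusted p = 0.0066), and with cytokines its log2 fold change was 0.07 (limma adjusted p = 0.64). Hnrnpm went from 119 ± 9.27 to 89.3 ± 0.619 FPKM (SD, n = 3) in medium (log2 -0.41, limma adjusted p = 0.0085) and had a log2 fold change of -0.03 with cytokines. Under knockdown with cytokines Hnrnpdl was lower than in shRNA-NC + cytokines cells (log2 -0.29, limma adjusted p = 0.025), a call lost under 6 alternatives. The fall of Hnrnpa3 in medium (log2 -0.61) is uncertain, because 16 pseudogene rows that share its protein record hold a summed mean FPKM of 38.2, against 10.2 for the gene itself. Hnrnpa1 has no protein record in the table, so the same check could not be made for it.

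The FPKM summed over a family is set mostly by its most abundant genes. In medium the sums relative to control were 1.46-fold for RBFOX, 1.20-fold for SR, 1.18-fold for PTB, where Ptbp2 fell, 1.17-fold for SF3A and SF3B, 0.844-fold for CELF and 0.660-fold for muscleblind genes. With 3 against 3 libraries the exact two-sided permutation test cannot give a p under 0.1, which these 6 sums reached. The Sm core and U1/U2 snRNP sum was 1.254-fold and the U2AF sum 1.225-fold in medium (exact permutation p = 0.2 for each). The hnRNP sum was 1.01-fold in medium (exact p = 1). Under cytokines the PTB, CELF and muscleblind sums were 0.947-fold, 0.980-fold and 0.842-fold (exact permutation p = 0.8, 0.6 and 0.2). The sums of the other families were 1.05-fold (SR) to 1.58-fold (RBFOX) with cytokines and reached an exact permutation p of 0.1.

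**Figure D3:**
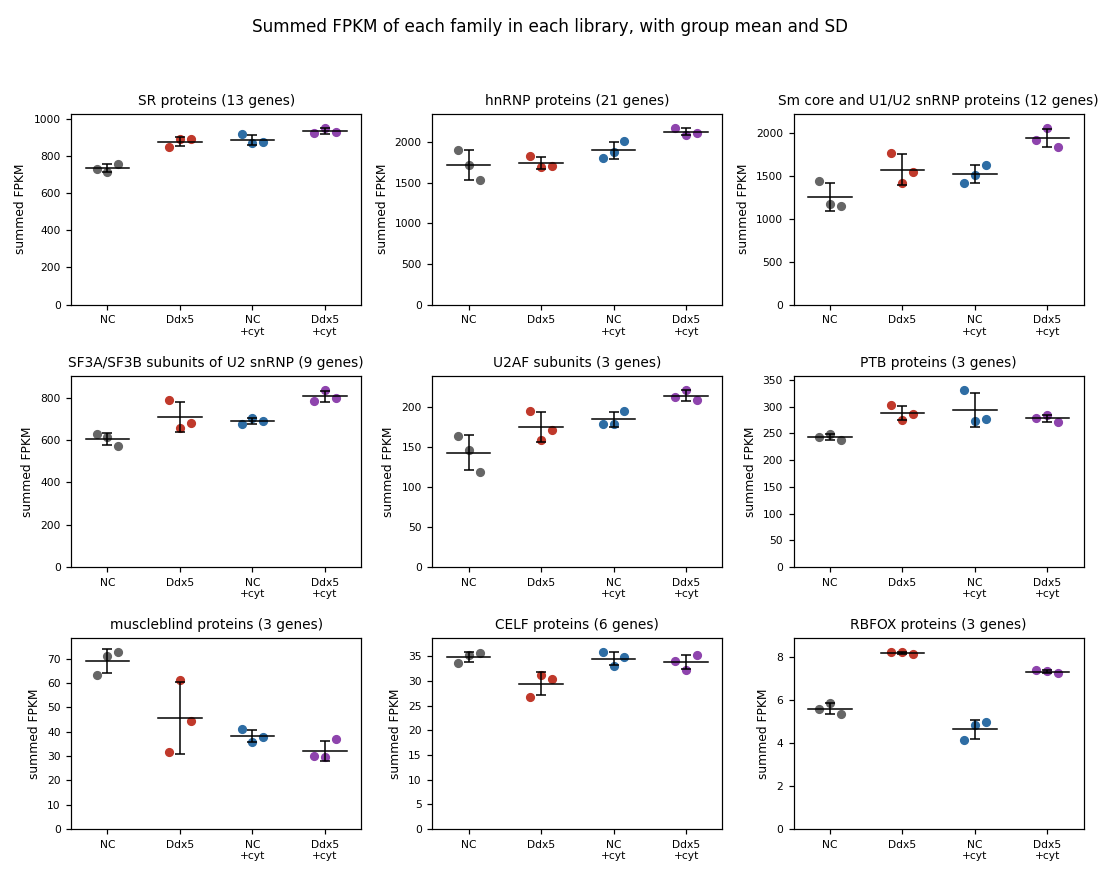
Summed FPKM of the genes of each family in each of the 12 libraries (points), with the mean (line) and SD (bar) of each group. The RBFOX sum separates the hairpins in both media, and the muscleblind sum is highest in shRNA-NC cells in medium, at 69.1 against 32.2 to 45.7 in the other groups.

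Cytokines in shRNA-NC cells raised 15 members and lowered 2, so 26.6% passed against 33.8% of all genes (18.6% up and 15.2% down), with a median log2 fold change of 0.13 against 0.02. In shRNA-Ddx5 cells 11 rose and 1 fell, 18.8% against 27.0% (13.5% in each direction), with a median of 0.11 against 0.00. The groups did not overlap for 23 and 30 members, against 45.7% and 47.3% of all genes. The split between rises and falls also moved with scaling. In shRNA-NC cells it was 11 up and 6 down after scaling to the sum of fragments and 2 and 10 after quantile normalization, and in shRNA-Ddx5 cells it was 6 and 3 after quantile normalization. The members' medians after quantile normalization were -0.0604 in shRNA-NC and -0.0292 in shRNA-Ddx5 cells, against -0.0473 and -0.0529 over all genes. After scaling to the sum of fragments they were 0.0486 and 0.0717, against -0.0535 and -0.0359. Without shRNA-NC + cytokines replicate 3, 9 rose in shRNA-NC cells. In shRNA-Ddx5 cells 18 rose without shRNA-NC replicate 3, 6 without shRNA-Ddx5 replicate 3, and 5 and 7 without shRNA-Ddx5 + cytokines replicates 1 and 2. Without the 3 libraries that stood apart, 26 rose and 8 fell in shRNA-Ddx5 cells.

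Mbnl1 fell with cytokines in both lines. From the values in medium given above it went to 27.2, 23.3 and 25.9 FPKM in shRNA-NC cells (45.8%, log2 -1.10, SE 0.18, limma adjusted p = 0.00086) and to 19.7, 18.8 and 24.0 FPKM in shRNA-Ddx5 cells (59.8%, log2 -0.68, limma adjusted p = 0.017). The groups did not overlap in either line. The call in shRNA-Ddx5 cells was lost without shRNA-Ddx5 replicate 2 or 3 or shRNA-Ddx5 + cytokines replicate 1 or 2. Rbfox2 was the other member to fall in shRNA-NC cells (log2 -0.23, limma adjusted p = 0.035), and this call was lost under 9 alternatives.

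Members that rose in both lines with cytokines were Hnrnpab, Hnrnpd, Hnrnpf and Snrpd3. Snrpd3, an Sm ring protein, rose by 1.59-fold in shRNA-NC (log2 0.71, SE 0.20, limma adjusted p = 0.018) and 1.65-fold in shRNA-Ddx5 cells (log2 0.73, limma adjusted p = 0.018), and Hnrnpab by 1.46-fold and 1.52-fold. The Snrpd3 calls were lost under quantile normalization or without shRNA-NC + cytokines replicate 3 in the first line, and without shRNA-Ddx5 replicate 2 or 3 or shRNA-Ddx5 + cytokines replicate 1 or 2 in the second. The Hnrnpab calls were lost with no filter, under quantile normalization or without shRNA-NC replicate 2 or 3 or shRNA-NC + cytokines replicate 3 in the first line, and without shRNA-Ddx5 replicate 2 or 3 or shRNA-Ddx5 + cytokines replicate 1 in the second. Sf3b4 (log2 0.55) and Hnrnpdl (log2 0.50) passed in shRNA-NC cells, as did Tra2b and Srsf7. The Sf3b4 and Hnrnpdl calls were lost under quantile normalization. In shRNA-Ddx5 cells Snrpf (log2 0.84, limma adjusted p = 0.048), Snrpb (log2 0.66, limma adjusted p = 0.029), Hnrnph1 (log2 0.50) and Celf4 (log2 0.49) passed. The Snrpf and Snrpb calls were lost under 14 and 7 alternatives. Whether these effects differed between lines was tested by the interaction.

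The interaction is the knockdown effect with cytokines minus that in medium, and equally the cytokine effect in shRNA-Ddx5 minus that in shRNA-NC cells. It passed for 5 of 64 members, 7.81% against 8.21% of all genes. It was above 0 for 1 member (3.46% of all genes) and below 0 for 4 (4.75% of all genes), all 4 of them SR protein genes. Srsf7 is an SR protein with a zinc knuckle. Its FPKM in medium was 68.6, 66.5 and 63.7 in shRNA-NC and 79.4, 81.1 and 79.2 in shRNA-Ddx5 cells, and with cytokines 99.2, 96.1 and 98.0 in shRNA-NC and 79.8, 83.0 and 82.3 in shRNA-Ddx5 cells. Knockdown libraries were thus higher in medium (log2 0.27, limma adjusted p = 0.0043) and lower with cytokines (log2 -0.26, limma adjusted p = 0.0055), with no overlap in either. After quantile normalization the value in medium was 0.0020 and did not pass. Cytokines raised it in shRNA-NC cells (log2 0.55, limma adjusted p = 5.1e-05) and its log2 fold change in shRNA-Ddx5 cells was 0.03. The interaction was -0.52 (SE 0.09, limma adjusted p = 0.0042).

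Tra2b, an SR-like activator of exon inclusion, was at 44.6, 44.8 and 43.7 FPKM in shRNA-NC and 49.2, 53.0 and 53.6 FPKM in shRNA-Ddx5 cells in medium. After cytokines it stood at 81.1, 61.2 and 63.9 FPKM in shRNA-NC and 57.0, 54.3 and 56.6 FPKM in shRNA-Ddx5 cells. The knockdown libraries were the higher in medium, where Tra2b did not pass (log2 0.22, limma adjusted p = 0.08). They were the lower with cytokines (log2 -0.28, limma adjusted p = 0.034), and shRNA-NC + cytokines replicate 1 was the highest of all. The call with cytokines was lost under 6 alternatives, among them leaving out that library. The interaction was -0.50 (SE 0.14, limma adjusted p = 0.046).

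Srsf3, the smallest SR protein, was at 109, 106 and 104 FPKM in shRNA-NC and 125, 137 and 136 FPKM in shRNA-Ddx5 cells in medium. With cytokines it was at 152, 142 and 139 FPKM in shRNA-NC and 135, 145 and 134 FPKM in shRNA-Ddx5 cells, and the groups overlapped. The interaction was -0.38 for Srsf3 (SE 0.10, limma adjusted p = 0.043) and -0.37 for Srsf2 (SE 0.10, limma adjusted p = 0.038). The calls of Tra2b, Srsf3 and Srsf2 were lost under 14, 15 and 12 alternatives. With single libraries left out, the Srsf3 call held only without shRNA-Ddx5 replicate 1. That of Srsf2 held without shRNA-Ddx5 replicate 1 or shRNA-NC + cytokines replicate 2, and that of Tra2b without these or shRNA-NC + cytokines replicate 1. The Srsf7 interaction call was lost under none of the alternatives tried.

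Hnrnph2 had the interaction of opposite sign. Its FPKM in medium was 65.5, 60.7 and 68.4 in shRNA-NC and 38.2, 43.1 and 39.4 in shRNA-Ddx5 cells, a level of 62.0% of the control (log2 -0.68, SE 0.08, limma adjusted p = 5.7e-05). With cytokines it was 55.3, 54.9 and 57.4 in shRNA-NC and 57.8, 51.0 and 58.6 in shRNA-Ddx5 cells, which overlapped. The interaction was 0.67 (SE 0.11, limma adjusted p = 0.0046) and was lost under none of the alternatives.

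**Figure D4:**
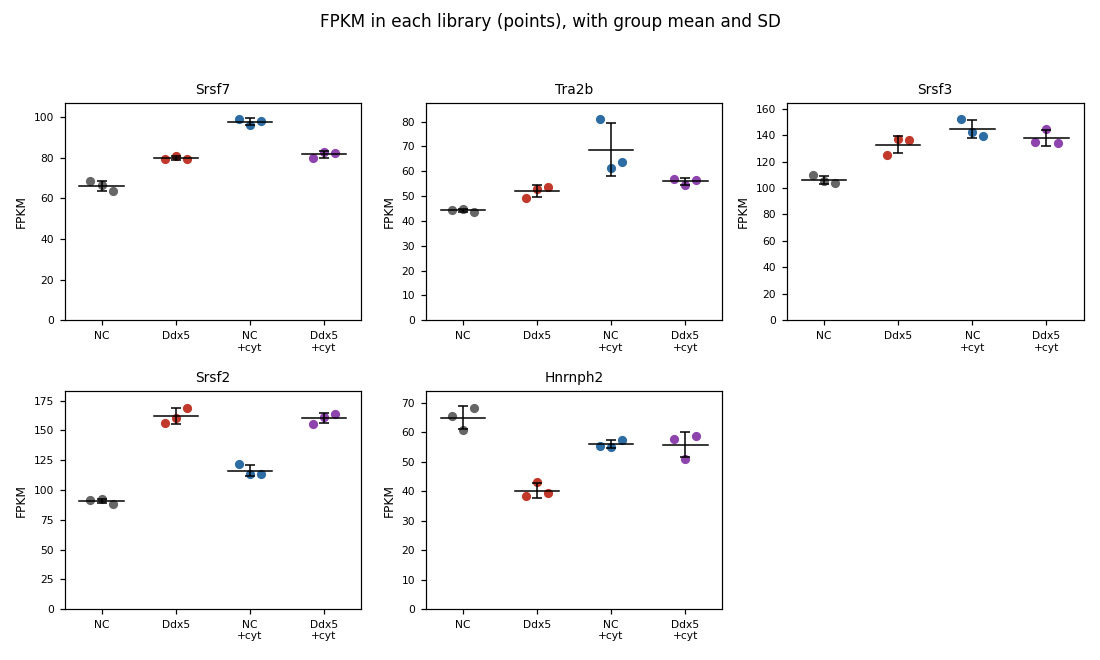
FPKM of the 5 members that passed the interaction test in each of the 12 libraries (points), with the mean (line) and SD (bar) of each group. Srsf7 is higher with the Ddx5 hairpin in medium and lower with it under cytokines, and Hnrnph2 is lower with the Ddx5 hairpin in medium only, with overlapping groups under cytokines.

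Among 189 other genes of the splicing machinery, listed by complex, 182 were tested. Under knockdown 47 rose and 40 fell in medium (25.8% and 22.0%, against 25.3% and 21.7% of all genes), and 34 rose and 27 fell with cytokines (18.7% and 14.8%, against 23.5% and 22.1%). In the U4/U6 and U5 tri-snRNP list, the particle that brings the catalytic snRNAs, 14 of 27 rose in each medium (51.9%), against 25.3% and 23.5% of all genes, and 3 and 1 fell. In the largest list, other RNA-binding regulators, 8 of 56 rose and 17 fell in medium (14.3% and 30.4%), and 4 rose and 12 fell with cytokines (7.14% and 21.4%). Ddx5, the target of the hairpin, is counted among the falls of this list and of the 182 genes in both media. The counts of the tri-snRNP and RNA-binding lists, and of the kinases below, were not repeated under other scalings or with libraries left out. Whether their shares differ from those of all genes was not tested. Lsm5 of the ring on U6 snRNA rose most in medium (log2 1.20, SE 0.10, limma adjusted p = 6.7e-06), ahead of Sap18 (log2 1.13), and Ppih (log2 1.05) and Lsm4 (log2 0.96) followed Ddx17 with cytokines. Of 7 tested kinases that phosphorylate SR proteins or the spliceosome 4 fell in medium (57.1%, against 21.7% of all genes) and 2 with cytokines (28.6%, against 22.1%). By limma 0 of them rose in either medium; at an unadjusted p under 0.05 this was 0 in medium and 1 (Srpk2) with cytokines, and with voom weights 0 in both. Besides Ddx5, the largest falls in medium were those of Upf2 (log2 -1.22, SE 0.24, limma adjusted p = 0.0015) and Thoc2 (log2 -1.21, SE 0.31, limma adjusted p = 0.0077), which act in NMD and mRNA export. Their shRNA-Ddx5 libraries were spread widely, at 5.40 ± 2.89 and 7.20 ± 4.55 FPKM (SD, n = 3). With cytokines the largest falls were those of Prpf39 (log2 -0.97), a U1 snRNP factor, and Cirbp (log2 -0.81).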

How the data were processed

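Gene-level RNA-seq of 12 ATDC5 libraries was analysed. The deposited values are FPKM, which the authors derived from featureCounts output. The submitters' processing notes name HISAT2 2.0.5, featureCounts 1.5.0-p3 and mm10, whereas the coordinates in the table are those of GRCm39; all 73 members lie at the same place in GENCODE vM39. Strandedness is not given in the sources used here, so reads of overlapping antisense genes cannot be told apart. FPKM times gene length gave whole fragments (tolerance 0.001) for all values; intervals from them would cover counting error only. The denominators were 0.957 to 1.08 times the fragment sums, highest in the shRNA-NC libraries, and 0 per-sample columns were left unmatched.

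Genes reaching 1 FPKM in 3 or more libraries were compared as log2(FPKM + 1) with limma 3.58.1 in R 4.3.3 (trend), with 4 group means over 12 libraries and Benjamini-Hochberg adjustment (threshold 0.05). The count-based DESeq2 of the authors was not repeated. The fit was tested on simulated data. Members and lists were chosen with earlier results of these data known. Genes were named by rule: Ddx5 and Ddx17, the 6 largest rises and falls per comparison among called members whose groups were separate, members past the interaction test, the 3 most abundant of each family, all of families of at most 6, and the 3 largest rises and falls of other splicing genes. Other members are listed to account for them. The fits were repeated with no filter, a pseudocount of 0.1, a replicate block, 2 other scalings, voom weights, calls limited to a log2 change of 0.25 or more in size, and each library left out. A gene length correction and leaving out 3 libraries were added after seeing the data. The deviation of some libraries from the other 2 of their group was correlated with gene length. The Spearman coefficient ranged from -0.342 (shRNA-Ddx5 replicate 1) to 0.366 (shRNA-Ddx5 replicate 2). Sequences are from GRCm39. Plots used matplotlib 3.10.9 (Python 3.11.15). Protein sequences were not used here.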

Additional observations from a re-analysis of the deposited data

Results flagged for a closer look

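The effect of the knockdown on 5 of 64 members differed between medium and cytokines by the interaction term (limma, Benjamini-Hochberg adjusted p over all 12368 genes). This was 7.81%, against 8.21% of all genes. The knockdown effect with cytokines minus that in medium, on the log2 scale, was -0.523 for Srsf7, -0.503 for Tra2b, -0.385 for Srsf3, -0.369 for Srsf2 and 0.671 for Hnrnph2. The interaction calls of Tra2b, Srsf3 and Srsf2 were lost under 14, 15 and 12 alternatives, and those of Srsf7 and Hnrnph2 under none. For Srsf7 both knockdown effects passed the test, with opposite signs, but the rise in medium was 0.0020 and did not pass after quantile normalization.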

How the results depend on the processing

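Of 61 results for single named members past the threshold, 26 passed under every alternative and 35 were lost under at least 1; 23 were lost under quantile normalization. The sign turned for Hnrnpk under knockdown with cytokines (-0.0035 after quantile normalization) and for Rbfox2 with cytokines in shRNA-NC cells (0.019 after the gene length correction). Leaving out each library gave 10 to 18 members up and 6 to 12 down for knockdown in medium, 7 to 16 and 3 to 9 for knockdown with cytokines, 9 to 15 and 1 to 4 for cytokines in shRNA-NC cells, 5 to 18 and 0 to 2 for cytokines in shRNA-Ddx5 cells and 1 to 3 and 1 to 4 for the interaction. Scaling to the sum of fragments gave 10 up for knockdown in medium, and 6 and 2 down for cytokines in shRNA-NC and shRNA-Ddx5 cells. Quantile normalization gave 5 up and 14 down for knockdown in medium, 2 up and 10 down for cytokines in shRNA-NC cells, 6 up and 3 down for cytokines in shRNA-Ddx5 cells and 2 up and 1 down for the interaction. With no filter 5 fell for knockdown with cytokines and 2 for cytokines in shRNA-Ddx5 cells. Voom weights gave 4 down, and the limit of 0.25 gave 1 down, for cytokines in shRNA-NC cells. The gene length correction gave 2 down for cytokines in shRNA-Ddx5 cells and 2 up and 2 down for the interaction. Without the 3 libraries that stood apart 23 rose for knockdown with cytokines, 4 fell for cytokines in shRNA-NC cells, 26 rose and 8 fell for cytokines in shRNA-Ddx5 cells and 6 rose for the interaction. The cause was not tested. Same-numbered libraries did not deviate together throughout. Between hairpins with cytokines r was -0.0855 to 0.121 for the same number, against -0.109 to 0.127 for other numbers. In medium it was 0.0425 to 0.448, against -0.378 to 0.19, and not every library correlated best with its own number. With 3 replicates these values cannot decide whether the numbers mark a pairing. With a replicate block 5 members fell for knockdown with cytokines, 1 for cytokines in shRNA-NC cells and 1 for the interaction, where the adjusted p was 0.018 for Srsf7 and 0.014 for Hnrnph2. Over all genes the block lowered the calls from 5817 to 5452 for knockdown in medium and from 1016 to 687 for the interaction. The 9 members below the filter had 0 to 568 fragments per library and were not tested.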
